A study of Mus musculus with 4 samples.

Results

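The Myc and Pvt1 locus was described in nascent RNA of activated mouse B cells, as the regions of convergent transcription that lie in the mm9 window chr15:61600000-62200000. Convergent transcription means that sense and antisense nascent transcripts run over the same DNA. Members were chosen by position alone. The files name no genes, so the spans of Myc (about 61817000 to 61822000) and Pvt1 (about 61869000 to 62083000) are those given with the window, to the nearest kb. Of 20175 regions merged over the 4 libraries where they shared at least 1 base, 17 fell in the window and 771 elsewhere on chromosome 15. Replicates 1 and 2 of the unsynchronized cells had 11 and 14 deposited regions in the window, and those of early G1 cells had 10 and 8.

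Global run-on sequencing (GRO-seq), in which engaged polymerases extend and label their transcripts in isolated nuclei, was applied to 2 libraries of unsynchronized cells and 2 of sorted early G1 cells. All were primary splenic B cells of C57BL/6 mice carrying the Fucci-EGFP+ cell cycle reporter, stimulated in culture with LPS, IL4 and Rp105. For early G1, the mitotic blocker nocodazole (100 ng/ml) was added 42 h after isolation for 6 h, and EGFP+ cells were sorted, cultured again for 1.5 h and sorted for early G1. The deposited name of early G1 replicate 1 says 1 h, and which time holds is not known. Effects of nocodazole, of sorting and of the cell cycle phase cannot be told apart in this design. No label ties the replicates to different mice or cultures. The p-values therefore describe the spread of these libraries alone, and that spread may be technical. B cell identity was not checked against marker genes, because the regions carry no gene names.

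Myc encodes a basic helix-loop-helix transcription factor that drives cell growth and division and is switched on when B cells are activated. Pvt1 is a long noncoding RNA gene that follows Myc in the same orientation. In some cell types the Pvt1 promoter is known to act as a boundary that limits the contact of Myc with enhancers inside Pvt1. Both genes are known partners of immunoglobulin loci in translocations of mouse B cell tumours, where the breaks are tied to activation-induced cytidine deaminase (AID), the enzyme of antibody diversification. In the RefSeq table of GRCm38, used for names and order only, Myc lies between the pseudogene Gm18788 and Pvt1, and Macroh2a3, a transcribed pseudogene, comes after the start of Pvt1.

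The value of a region is its deposited signal, labelled a geometric mean. In the values it acts as the root of the product of the sense and antisense read counts, per length and per library constant, so that it falls when either strand falls. With length and constant taken out, the same quantity is called reads here. Library sizes inferred from the constants were 14720000 and 13480000 reads for unsynchronized and 8170000 and 9520000 reads for early G1 cells, so depth differed with the group. Where a library's list has no region, no value exists, which is not a measurement of zero transcription.

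At Myc itself, both unsynchronized libraries held a convergent region and neither early G1 library did. The merged region, chr15:61817066-61819567, begins 66 bp past the rounded start of Myc and covers the first part of the gene. Its signal was 35.3 over 2502 bp in unsynchronized replicate 1 and 89.6 over 1726 bp in unsynchronized replicate 2, and thus 62.4 ± 38.4 (SD, n = 2). The replicates therefore differed widely in level, while each placed the region high in its own list. It stood above 90.7% of the regions of replicate 1 and 96.8% of those of replicate 2. The signals rested on 1298 and 2085 reads, for which the counting error is at least 1.96% and 1.55%. Unsynchronized replicate 2 also held a region of signal 20.9 before the gene, at chr15:61815125-61816280.

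In early G1 cells the nearest calls to Myc lay far away on either side. To the left, the next call ended 437 kb before Myc in replicate 1 and 439 kb before it in replicate 2. To the right, it was the start of Pvt1 in both. Unsynchronized replicate 1 had the same flanks around its Myc call, with the next call to the left ending 437 kb before Myc. Only unsynchronized replicate 2 had a nearer call on the left, 0.72 kb before Myc, and its next call to the right was also the start of Pvt1. No library held a call in the 47 kb between the Myc and the Pvt1 spans.

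**Figure D1:**
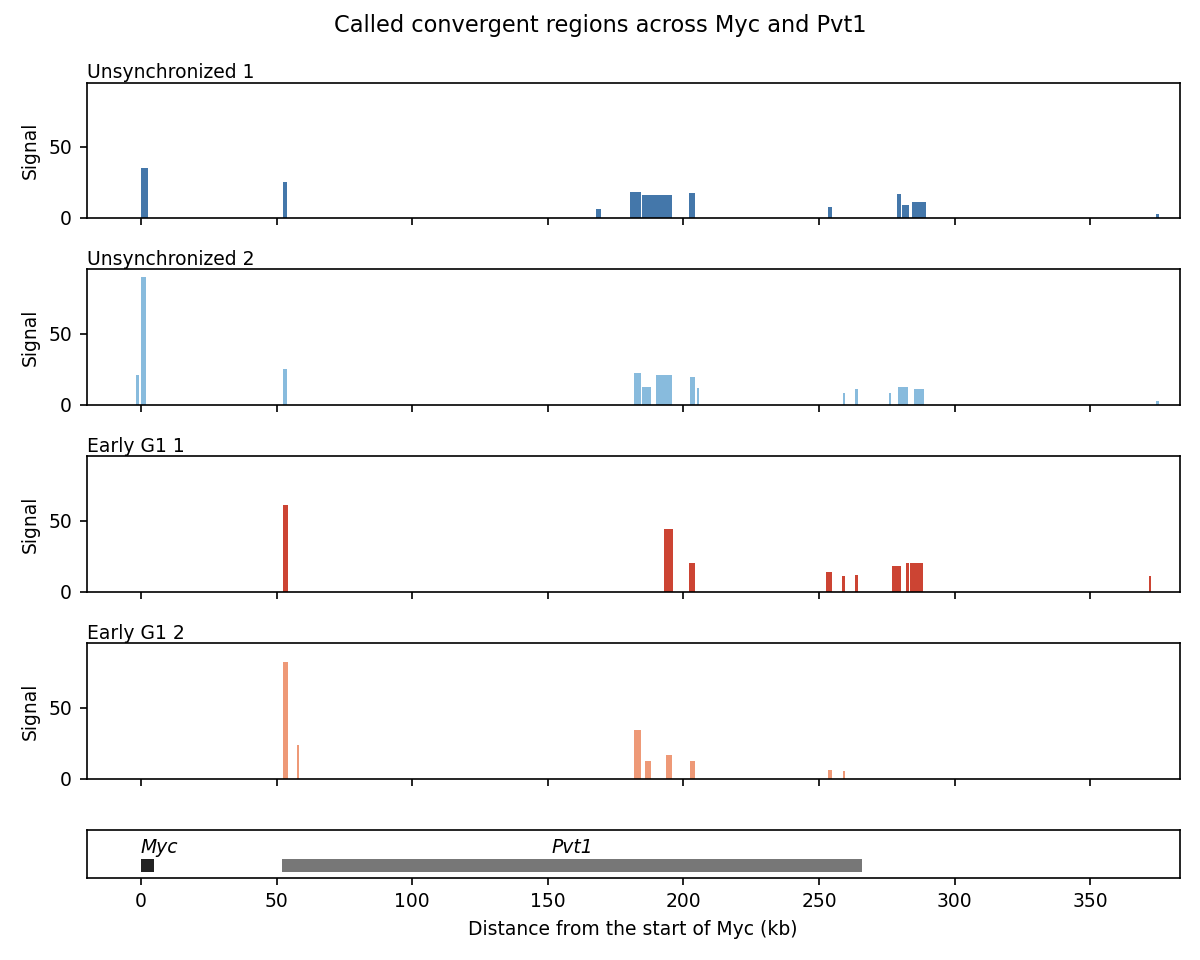
Called convergent regions by distance from the start of Myc (kb), drawn to scale, with bar height giving the deposited signal in each of the 4 libraries and the spans of Myc and Pvt1 below. The stretch of the window further left is not drawn and holds no call. Bars stand over Myc in the unsynchronized libraries alone, while the start of Pvt1 has a bar in all 4, at 24.8 and 25.4 for unsynchronized against 60.8 and 81.7 for early G1 cells.

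A call absent from both early G1 libraries was frequent among weak regions and rare among regions as strong as that at Myc. Over all chromosomes, both unsynchronized libraries called 7942 merged regions, and 1004 of these (12.6%) lacked any early G1 call. Where the weaker of the unsynchronized signals was at least 35.3, the value at Myc, 18 of 856 regions (2.10%) lacked one, and the Myc region is among the 18. On chromosome 15 it was the only one of 36 regions of that strength. The signal class was chosen after the values had been seen, and the shares describe these lists without a test.

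**Figure D2:**
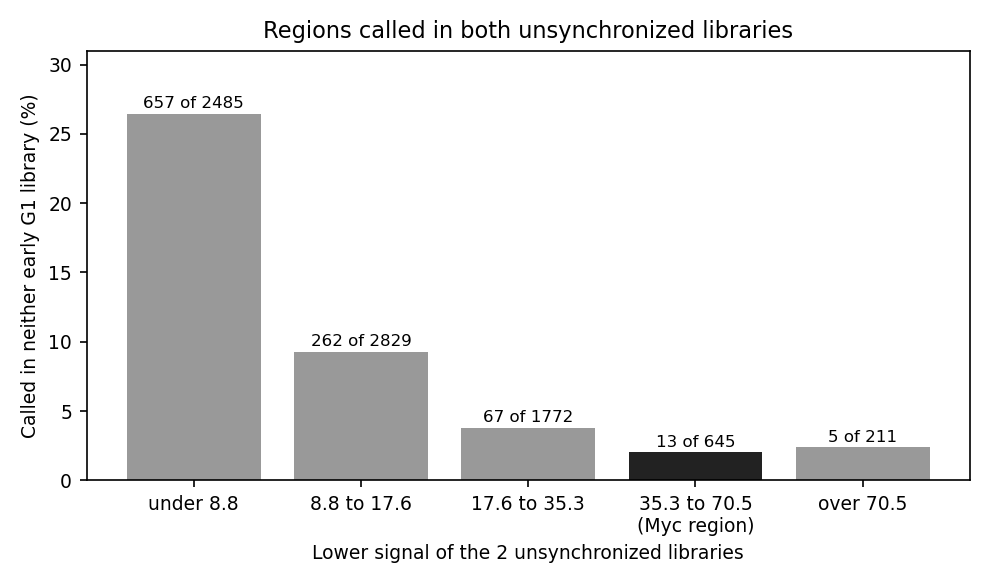
Percent of the merged regions of both unsynchronized libraries that had no early G1 call, by the lower of the 2 unsynchronized signals, with counts above the bars. The share runs from 26.4% below a signal of 8.8 to 2.02% in the class from 35.3 to 70.5, which holds the Myc region (dark bar). In the strongest class, over 70.5, it is 2.37%.

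Among early G1 regions as long as the calls at Myc (1726 to 2502 bp), the lowest signal was 2.34 in replicate 1 (1369 regions) and 3.52 in replicate 2 (874 regions). As a number, the lower of the unsynchronized values at Myc exceeds the signals of 81.2% and 75.3% of these regions. The levels of the groups differ, however, since regions called in every library lay higher in early G1 by a median log2 change of 0.41. That a Myc region of this signal would have been called in early G1 was not tested. The early G1 libraries were the smaller ones, these sources do not state the calling rule, and the part of depth in the missing calls was not tested. Whether one strand or both changed at Myc was not tested either.

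On chromosome 15 outside the window, 35 merged regions had the same pattern of calls as Myc. Since Myc has no early G1 value, likeness was taken as the Euclidean distance over the log2(signal + 1) of the 2 unsynchronized libraries, a change made after the data had been seen. The closest was chr15:84144012-84144181 at a distance of 0.30, with signals of 31.2 and 75.5. It was followed by chr15:81344762-81344936 at 1.06 and chr15:79713810-79714705 at 1.30. These regions are 170, 175 and 896 bp wide, shorter than that at Myc. None of the 35 had a lower unsynchronized signal above that of Myc.

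The start of Pvt1 carried a convergent region in every library, and either early G1 signal stood above either unsynchronized one. The merged region was chr15:61869511-61871224. Unsynchronized cells had signals of 24.8 and 25.4 there, against 60.8 and 81.7 in early G1 cells, or 25.1 ± 0.43 against 71.2 ± 14.8 (SD, n = 2), which is 2.84-fold. The log2 change, early G1 minus unsynchronized, was 1.45 (SE 0.41), which did not pass the test over all shared regions (limma with Benjamini-Hochberg adjustment, adjusted p = 0.16). Groups that did not overlap in this direction were common, with 43.9% of the 4972 regions called in all 4 libraries.

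All shared regions together lay higher in early G1 under the authors' scaling, by a median log2 change of 0.41. The start of Pvt1 was 1.04 beyond that median. It ranked 178 of 4972 shared regions by its change, and 6 of the 179 on chromosome 15. Before scaling, the region held 425 and 419 reads in unsynchronized cells against 835 and 1288 reads in early G1 cells. The smaller libraries thus held more reads in their calls, but over longer intervals (1165 and 1226 bp against 1683 and 1656 bp). The part of interval length in these counts was not tested.

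The called interval at the start of Pvt1 was also longer in early G1. All 4 libraries began within 31 bp of each other, 511 bp or more past the rounded start of Pvt1. Unsynchronized calls were 1165 and 1226 bp long, against 1683 and 1656 bp for early G1. Both early G1 calls ran at least 461 bp further into Pvt1 than either unsynchronized call. Of all 4972 shared regions, 892 (17.9%) had both early G1 calls longer than both unsynchronized ones, and 782 (15.7%) had both right ends further right. The reverse held for 923 and 961 regions respectively. As signal times length, which takes in this extension, the log2 change was 1.94 (limma adjusted p = 0.30). Early G1 replicate 2 held a further region inside Pvt1, chr15:61874383-61875312, with a signal of 23.8.

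**Figure D3:**
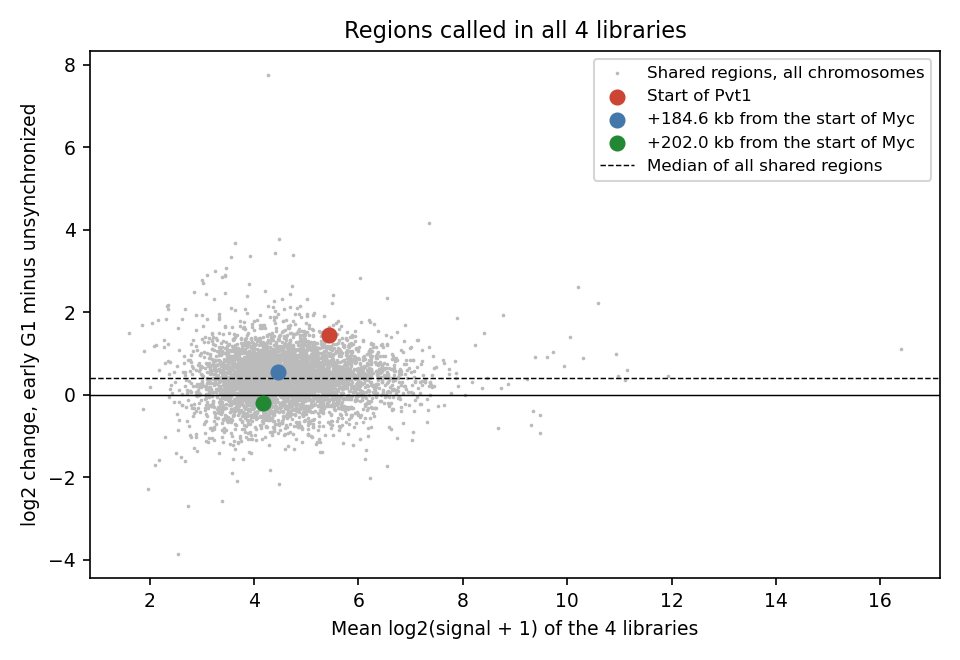
The log2 change (early G1 minus unsynchronized) against the mean log2(signal + 1) for each of the 4972 regions called in all 4 libraries, with the 3 regions of the Myc and Pvt1 window as large points and the median of all as a dashed line. The start of Pvt1 lies at 1.45, above the median of 0.41, and the other two lie at 0.57 and -0.20.

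Within the unsynchronized libraries the Myc region had the higher signal of the pair, at 35.3 against 24.8 for the start of Pvt1 in replicate 1 and 89.6 against 25.4 in replicate 2. In the early G1 libraries the start of Pvt1 had the highest signal of the window, above 90.8% and 95.4% of the regions of its list. This order is of length-scaled signals within a library.

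Further into Pvt1 no library held a call over a stretch of 87 kb, from 20 kb past the start to the middle of the span. Convergent regions then came in a group around 128 to 153 kb into the gene. The largest, chr15:62001602-62013329, was called in all 4 libraries but over different lengths. Unsynchronized cells held 10927 and 9297 bp there with signals of 16.1 and 17.9, and early G1 cells 3561 and 4062 bp with signals of 44.3 and 14.6. The early G1 replicates thus lay on opposite sides of the unsynchronized values, and they shared 1982 called bases.

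Its log2 change was 0.57 (SE 0.50, limma adjusted p = 0.59). This is 0.15 beyond the median of all shared regions, at rank 1900 of 4972. The sign of the change followed the measure. Unsynchronized cells had 2587 and 2237 reads in the region, against 1287 and 566 in early G1 cells. As signal times length the log2 change was -0.81 (adjusted p = 0.56). The sign was also lost without early G1 replicate 1, at -0.20. Just before it lies chr15:61997279-62001451, with signals of 18.1 and 22.3 in the unsynchronized libraries and 34.4 in early G1 replicate 2, and with no call in early G1 replicate 1.

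The third shared region, chr15:62018968-62021390, had signals of 17.4 and 19.3 in unsynchronized cells, against 20.2 and 12.4 in early G1 cells. Its log2 change was -0.20 (SE 0.44, limma adjusted p = 0.84), and the groups overlapped. Against the median of all shared regions it stood at -0.61, at rank 4296 of 4972. The log2 change turned to 0.13 without early G1 replicate 2. Of the 3 shared regions of the locus, 0 passed the test in limma, and 1 was at an unadjusted p under 0.05, the start of Pvt1. Over all shared regions 15 (0.302%) passed as higher and 2 (0.0402%) as lower in early G1, while 693 and 47 had an unadjusted p under 0.05. That balance moved with the scaling, to 212 higher and 285 lower after division by the library median and to 119 higher and 358 lower as unscaled reads. With 3 regions, 0 calls is what these shares give, and says nothing particular about the locus.

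Weak regions lined the distal end of Pvt1, each lacking a call in some library. At chr15:62069579-62071713 the signals were 7.88 in unsynchronized replicate 1 and 13.9 and 6.00 in early G1 cells. At chr15:62075319-62076760 they were 8.50 in unsynchronized replicate 2 and 10.96 and 5.23 in early G1 cells. The region chr15:62080152-62081264 was called in the second unsynchronized and the first early G1 library, at 11.1 and 11.8. At the first 2 the single unsynchronized value lay between the early G1 values, and at the third each group rests on 1 library.

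Beyond the end of the Pvt1 span, 2 broad regions were called in both unsynchronized libraries and in early G1 replicate 1, but not in early G1 replicate 2. At chr15:62093892-62100024 the signals were 12.2 and 12.5 in unsynchronized cells and 18.4 in early G1 replicate 1. At chr15:62100439-62106468 they were 11.03 and 10.9 against 20.0. The early G1 replicates therefore did not agree on this stretch, which begins 10.9 kb past the rounded end of Pvt1. RefSeq's Pvt1 is 222230 bp long, more than the 214 kb span used here, and whether these regions fall inside an mm9 transcript was not settled.

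The last named region, chr15:62191110-62192269, was the second of the window to have 2 unsynchronized calls and no early G1 call. Its signals were 2.73 and 2.40, on 46.6 and 30.4 reads, among the weakest of their lists. It differs in this from Myc, the other region of that pattern. Of the 8 window regions called in both unsynchronized libraries these 2 (25%) lacked any early G1 call, against 12.6% over all chromosomes. Of the 5 called in both early G1 libraries, 0 lacked an unsynchronized call, against 10.6%. Counts this small do not set the window apart.

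**Figure D4:**
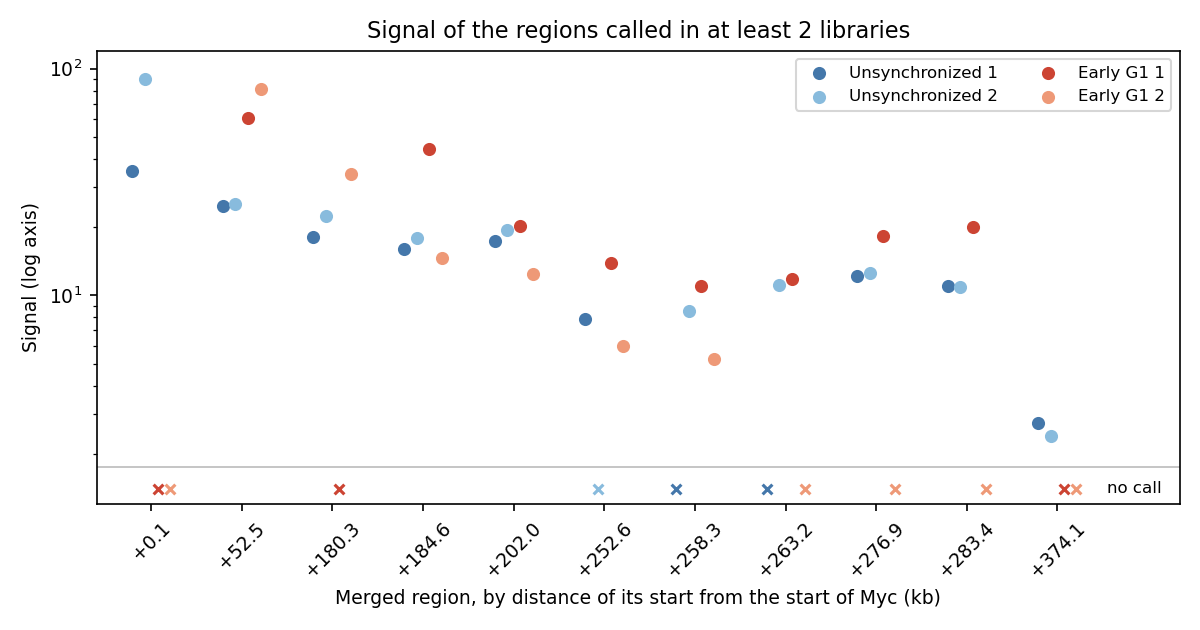
Signal on a log axis of the 11 merged regions called in at least 2 libraries, ordered by the distance of their start from the start of Myc (kb), with 1 point per library and crosses below the line where a library had no call. The early G1 points lie above the unsynchronized ones at the start of Pvt1 (+52.5 kb), and crosses stand for both early G1 libraries at Myc (+0.1 kb) and at +374.1 kb.

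There were 6 regions called in 1 library each, 2 of them named above, of which 4 were in unsynchronized and 2 in early G1 replicates, with signals between 5.83 and 23.8. The share of merged regions found in a single library was 35.3% here and 43.1% on the rest of chromosome 15. Of the bases called in either unsynchronized library in the window, 60.2% were called in both (Jaccard index). For the early G1 libraries the index was 26.9%, less than the 29.2% to 34.3% of pairs taken across the groups. In the window 8389 bases were called in both unsynchronized libraries and neither early G1 library, and 571 bases the other way round, which is 17.8% and 1.21% of the bases called there in any library. The same shares were 7.66% and 3.42% over all chromosomes, and 6.08% and 3.73% on the rest of chromosome 15. They carry no test.

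Over the whole window, less DNA was called in early G1 cells, at a higher mean signal. Called length came to 34.5 and 30.2 kb in unsynchronized cells, against 22.1 and 13.3 kb in early G1 cells, or 32.3 ± 3.04 against 17.7 ± 6.26 kb (SD, n = 2). The length-weighted mean signal was 15.6 and 19.9 in unsynchronized cells against 24.9 and 25.8. In both measures the groups did not overlap (exact two-sided permutation p = 0.333 for each, the smallest that 2 against 2 libraries allow). Over the genome, 2003 bins of this width had a call in all 4 libraries, and only these were counted. A called length below both unsynchronized libraries was found in 476 (23.8%) of them. A mean signal above both unsynchronized libraries was found in 1069 (53.4%) of them. Fewer regions in both early G1 libraries than in either unsynchronized one, as in the window, were found in 255 (12.7%) of these bins.

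Signal times length in kb, summed over the window, was 536 and 600 for unsynchronized cells against 551 and 343 for early G1 cells. The groups overlapped, and the log2 change was -0.38 (SE 0.45, limma adjusted p = 0.71). All 2003 bins had a median log2 change of 0.41, and 85.2% of them had a higher change than the window. Of the 2003 bins, 0 (0%) passed this test in limma, while 204 higher and 35 lower bins had an unadjusted p under 0.05 (84 and 91 after division by the library median). Such a sum depends on what was called, and a stretch without a call adds 0.

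The make-up of this sum differed between the libraries. The Myc span held 16.4% and 25.8% of it in the unsynchronized libraries and none in early G1, as no call was made there. The first 20 kb of Pvt1 held 5.38% and 5.19% in unsynchronized against 18.6% and 45.9% in early G1 cells. The 45.9% takes in the further region that early G1 replicate 2 alone held there. From the middle of Pvt1 to its end the shares were 58.1% and 48.7% against 47.3% and 54.1%. Beyond the Pvt1 span they were 20.1% and 16.3% against 34.1% in early G1 replicate 1 and none in replicate 2, which had no call there. Those parts of a whole are tied to each other, so that a lost part raises the shares of the rest.

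The locus stood above most of its chromosome in convergent transcription. In called length the window ranked 4 and 5 in unsynchronized replicates and 10 and 13 in early G1 replicates, among itself and the 85 to 88 other bins of chromosome 15 with a call. Those bins had medians of 4.96 and 4.14 kb in unsynchronized cells, against 4.49 and 3.31 kb in early G1 cells. In number of regions the window ranked 10 and 7 against 15 and 14. By summed signal times length it ranked 4 and 5 in unsynchronized replicates, against 6 and 14 in early G1 replicates. It made up 0.155% and 0.163% of a library's called length for unsynchronized cells, against 0.115% and 0.0854% for early G1. Ranks in lists of different length are a description and show no change.

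**Figure D5:**
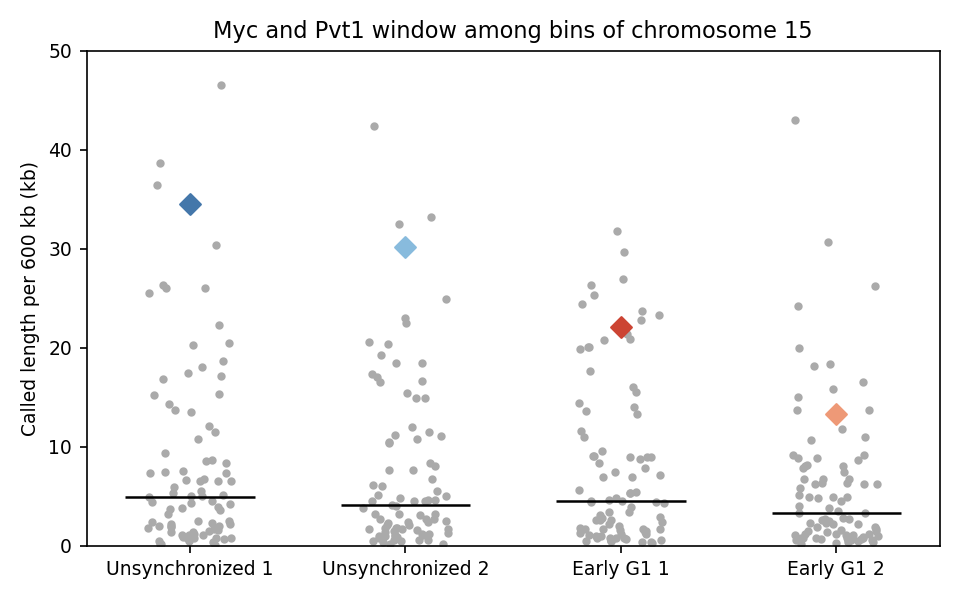
Called length (kb) in bins of 600 kb of chromosome 15, with grey points for the other bins that hold a call, a line at their median and a diamond for the Myc and Pvt1 window. The window lies at 34.5, 30.2, 22.1 and 13.3 kb, above the median of the bins in each library.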

How the data were processed

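Each of the 4 libraries has a deposited list of regions of convergent transcription, per the file headers, with a position and a signal. BWA 0.7.12, HOMER and the build mm9 are credited to the submitters' processing notes. Regions were called in each library separately, and scaling and thresholds are not given in the sources used here. The square of the deposited signal times region length was a whole multiple of 1 constant per library for 100% of the 2164 to 3384 regions tested (multiples below 5000, tolerance 0.1), from which reads and library sizes were inferred as for RPKM. Counting errors are lower bounds, for equal strands, and cover counting error only.

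Regions were merged where they shared 1 base, and a library's value was its length-weighted mean signal. For the 4972 regions with a call in every library, groups were tested in R 4.3.3 by limma 3.58.1 (lmFit, then eBayes using a trend) on log2(signal + 1), two-sided, with Benjamini-Hochberg adjustment over all of them and a threshold of 0.05. The fold scale understates changes of low regions. The same test was run on bins of 600 kb that tile each chromosome, for bins with a call in all 4 libraries. The script was tested on simulated data, with planted changes larger than that at the start of Pvt1 and the same noise in every region. That check therefore does not show whether changes of the size seen here would be found. Named regions are all those of the window called in at least 2 libraries, and 2 more (chr15:61815125-61816280 and chr15:61874383-61875312), each from 1 library, were named after their values were seen. The window, the lists and the tests were chosen with earlier results of these data known. No annotation of mm9 was used, so the marker and MYC network lists were not examined. Promoter sequences of Myc and Pvt1 are not printed.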

Additional observations from a re-analysis of the deposited data

How the results depend on the processing

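The log2 change at the start of Pvt1 stayed between 1.002 and 1.94 under 8 other settings and between 1.24 and 1.66 when a library was left out, and never passed the threshold (adjusted p from 0.084 to 0.48). In the window 0 shared regions passed in any of these 12 settings. Over all chromosomes the 17 calls became 2 without the limma trend, 3 with merging within 1 kb, 1 for signal times length, 0 after division by the library median, 1 for unscaled reads and 33 without the lowest 25% by mean signal. They ranged from 1 to 119 when a library was left out.

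The replicate numbers of the groups are not known to mark pairs, and same-numbered libraries deviated together with a correlation of only 0.10. With the replicate number as a block 4 regions passed over all chromosomes, and the start of Pvt1 had an adjusted p of 0.16. The long region inside Pvt1 changed sign as signal times length (-0.81), as unscaled reads (-1.49) and without early G1 replicate 1 (-0.20), with up to 1.33 when another library was left out. The third shared region was at -0.53 to 0.13 when a library was left out, above 0 without early G1 replicate 2. The difference in the number of window regions, -3.5, was -1.5 with weak signals left out, -1.5 with joining within 1 kb, and -5 to -2 without a library. With weak signals left out the groups overlapped, at 8 and 11 unsynchronized against 10 and 6 early G1 regions. With joining they met, at 9 and 11 against 9 and 8. The called length kept its direction, at -19.1 to -10.2 kb. The summed level of the window stayed below 0, from -0.76 to -0.042. Depth was lower in early G1, and with 2 libraries a group no single value can pass an exact test.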
